A study of Mus musculus with 70 samples.

Results

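Cell surface receptors that raise or restrain lymphocyte activation were followed through innate lymphoid cell (ILC) progenitors of mouse bone marrow. They are the costimulatory receptors Cd28, Icos, Tnfrsf9 and Tnfrsf18 and the inhibitory receptors Pdcd1, Ctla4, Btla and Lag3, chosen by name through their Entrez identifiers, and they are 8 of the 27179 genes in the count tables. Each sample was 100 cells sorted from bone marrow, and its polyadenylated RNA was read as tags near the 3′ end of transcripts (CEL-seq). The series holds 70 samples, which came to 66 libraries once 4 technical repeats were added to their parents.

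The populations, from the earliest to the latest, were the common lymphoid progenitor (CLP), CLP carrying the integrin α4β7, the common innate lymphoid progenitor (CILP), ILCP, and the group 2 ILC progenitor (ILC2P). TCF7-/- mice, which lack TCF-1, gave 5 CLP, 4 CILP and 2 ILC2P libraries. Id2-/- mice, which lack an inhibitor of E proteins, gave 2 CLP, 2 CILP and 1 ILCP library. From wild-type mice there were 8 libraries of CLP, 5 of α4β7 CLP, 7 of CILP, 3 of ILCP and 8 of ILC2P. The labels give no age, sex or pooling of animals, no gate for ILCP, and neither the deleted part of Tcf7 or Id2 nor the cells in which it was deleted. No label says that replicates came from separate mice, so the p-values measure a spread between libraries that may be technical. All Id2-/- libraries belong to batch 1 and both TCF7-/- ILC2P libraries to batch 2, while every wild-type population spans both batches.

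In mature T cells, CD28 and ICOS bind B7 family ligands on antigen-presenting cells and recruit phosphoinositide 3-kinase beside the antigen receptor, while CTLA-4 competes with CD28 for the same ligands. PD-1, the product of Pdcd1, and BTLA carry tyrosine motifs that recruit phosphatases, and LAG-3 binds MHC class II. Tnfrsf9 (4-1BB) and Tnfrsf18 (GITR) signal through TRAF adaptors to NF-kB. ILC lack antigen receptors, yet PD-1 is known as a marker of ILC precursors in mouse bone marrow and ICOS as a marker and survival receptor of group 2 ILC.

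Libraries of the 11 groups held 19322 to 624668 counts with a median of 134985, and the lowest was a wild-type ILC2P library (19322 to 80873, median 66812.5, in that group), while TCF7-/- CILP had the lowest group median (56609, with 44089 to 432561 counts). The 31 wild-type libraries were checked against population markers, which followed the labels in part. Flt3 had counts in 8 of 8 CLP and 5 of 5 α4β7 CLP libraries, Zbtb16 in 7 of 7 CILP libraries, and Il1rl1 in 8 of 8 ILC2P libraries. The 3 ILCP libraries also held 212 to 1739 CPM of Il1rl1, the IL-33 receptor, which reached 6.32 CPM at most in CILP, while Zbtb16, known as a marker of ILC precursors, read 0 to 74.1 CPM in ILCP, against 171 to 536 CPM in CILP. In α4β7 CLP the integrin gene Itgb7 read 16.0 to 316 CPM, overlapping CLP (0 to 238 CPM). Rora, which is listed among the ILC2 markers, was lower in ILC2P than in CILP (6.18 ± 17.5 CPM in ILC2P and 189 ± 167 CPM in CILP, SD, edgeR adjusted p = 0.00969). Tcf7 read 0 to 46.2 CPM in TCF7-/- CILP, against 190.4 to 658 CPM in wild-type CILP, without passing the test (edgeR adjusted p = 0.157). In CLP it read 0 to 27.6 CPM in TCF7-/- and 0 to 7.76 CPM in wild type (log2 3.21 ± 1.20, edgeR adjusted p = 0.565). In ILC2P it read 0 to 44.2 CPM in TCF7-/- and 0 to 73.3 CPM in wild type (log2 0.10 ± 1.36). Id2 read 26.8 to 119 CPM in Id2-/- CILP, against 67.2 to 2957 CPM in wild-type CILP (edgeR adjusted p = 0.595). Where the tags lie relative to the deletions is not given, so remaining tags do not check the knockouts. Levels are given as CPM, a count scaled to a common library total and not by gene length, so they were compared within a gene only.

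The genes Cd28, Ctla4 and Icos sit side by side on mouse chromosome 1 (GRCm38.p6). Cd28 lies at chr1:60746388-60773359, Ctla4 at chr1:60909025-60915832 and Icos at chr1:60960773-61000322, with gaps of 135665 and 44940 bases and no protein-coding gene between them. Pdcd1 lies on the minus strand of the same chromosome at chr1:94038305-94052553. Tnfrsf9 (chr4:150920155-150946104) and Tnfrsf18 (chr4:156026322-156028894) share chromosome 4, Lag3 lies at chr6:124904359-124912434 beside Cd4, and Btla at chr16:45223705-45252895. A noncoding gene, Gm16008, overlaps Tnfrsf18, and the strand used in counting is not stated, so reads of the overlap cannot be assigned with certainty. Gm16008 itself had no count in any library.

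Because one of the knockouts removes TCF-1 and the other an inhibitor of E proteins, the promoter windows (250 bases before to 50 after the start, RefSeq on GRCm38.p6) were searched on both strands for the TCF/LEF core CTTTGA, the E-box CANNTG, the GATA motif AGATAA and the RUNX motif TGTGGT. These motifs occur in 16.0%, 72.3%, 11.2% and 16.8% of 32851 such windows. Windows were at hand for Pdcd1, Ctla4, Btla, Tnfrsf9 and Tnfrsf18. The Pdcd1 window (chr1:94052504-94052803, minus strand) is shown because Pdcd1 was called both in CILP against CLP and in ILC2P against CILP, and it holds none of the 4 motifs. The Ctla4 window (chr1:60908775-60909074) is shown for the Cd28, Ctla4 and Icos cluster and holds 1 TCF/LEF core and 2 E-boxes. The first of the Tnfrsf9 windows (chr4:150919905-150920204) holds 1 TCF/LEF core and 1 E-box, and the Tnfrsf18 window (chr4:156026072-156026371) holds 4 E-boxes, of which 2 overlap. Both genes had counts in most CILP libraries. Capitals mark the motif matches, and each sequence reads 5′ to 3′ on the strand of its gene.
Pdcd1: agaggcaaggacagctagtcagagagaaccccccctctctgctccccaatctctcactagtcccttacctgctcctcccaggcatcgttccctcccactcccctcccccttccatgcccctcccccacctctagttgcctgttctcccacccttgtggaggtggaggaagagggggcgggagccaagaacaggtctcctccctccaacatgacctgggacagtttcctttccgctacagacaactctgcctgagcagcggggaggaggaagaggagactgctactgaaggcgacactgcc
Ctla4: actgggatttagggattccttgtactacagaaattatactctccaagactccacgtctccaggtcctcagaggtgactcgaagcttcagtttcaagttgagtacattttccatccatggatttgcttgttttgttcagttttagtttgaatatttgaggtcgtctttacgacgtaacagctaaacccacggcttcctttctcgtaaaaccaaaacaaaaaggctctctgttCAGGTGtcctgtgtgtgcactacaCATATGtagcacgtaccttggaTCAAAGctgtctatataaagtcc
Tnfrsf9: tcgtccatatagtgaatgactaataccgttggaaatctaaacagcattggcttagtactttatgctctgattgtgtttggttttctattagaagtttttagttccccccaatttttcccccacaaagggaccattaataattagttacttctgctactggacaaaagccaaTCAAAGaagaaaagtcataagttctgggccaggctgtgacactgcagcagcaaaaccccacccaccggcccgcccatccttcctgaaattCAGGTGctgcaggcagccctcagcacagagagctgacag
Tnfrsf18: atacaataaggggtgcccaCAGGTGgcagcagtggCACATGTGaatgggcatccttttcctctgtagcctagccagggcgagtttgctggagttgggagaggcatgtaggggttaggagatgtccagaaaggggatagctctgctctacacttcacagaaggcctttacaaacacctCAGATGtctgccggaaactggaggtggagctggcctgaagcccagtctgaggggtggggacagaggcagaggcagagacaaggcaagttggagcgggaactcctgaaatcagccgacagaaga
A match is a string of letters in the window and no evidence of binding, and windows without a match say nothing of the factor.

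Across the wild-type populations, Pdcd1 was high in CILP and at 0 in CLP and ILC2P, and Icos was high in CILP, ILCP and ILC2P. The other 6 receptors had at most 153 counts each over the 31 libraries, against 357 for Pdcd1 and 1280 for Icos. Pdcd1 had counts in 9 of 31 wild-type libraries and Icos in 25 of 31. Cd28 had counts in 17, Tnfrsf18 in 21, Tnfrsf9 in 10, and Ctla4, Btla and Lag3 in only 3 or 4 libraries. Of the 8 receptors, 6 passed the filter on low counts, and Ctla4 and Lag3 did not, so these are described without a test. A single high library can admit a gene through this filter. Tnfrsf9 was admitted through wild-type CILP (highest library 81.6 CPM) and Btla through TCF7-/- ILC2P (87.3 CPM). Tests of these 2 genes in those groups are therefore not independent of the filter.

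**Figure D1:**
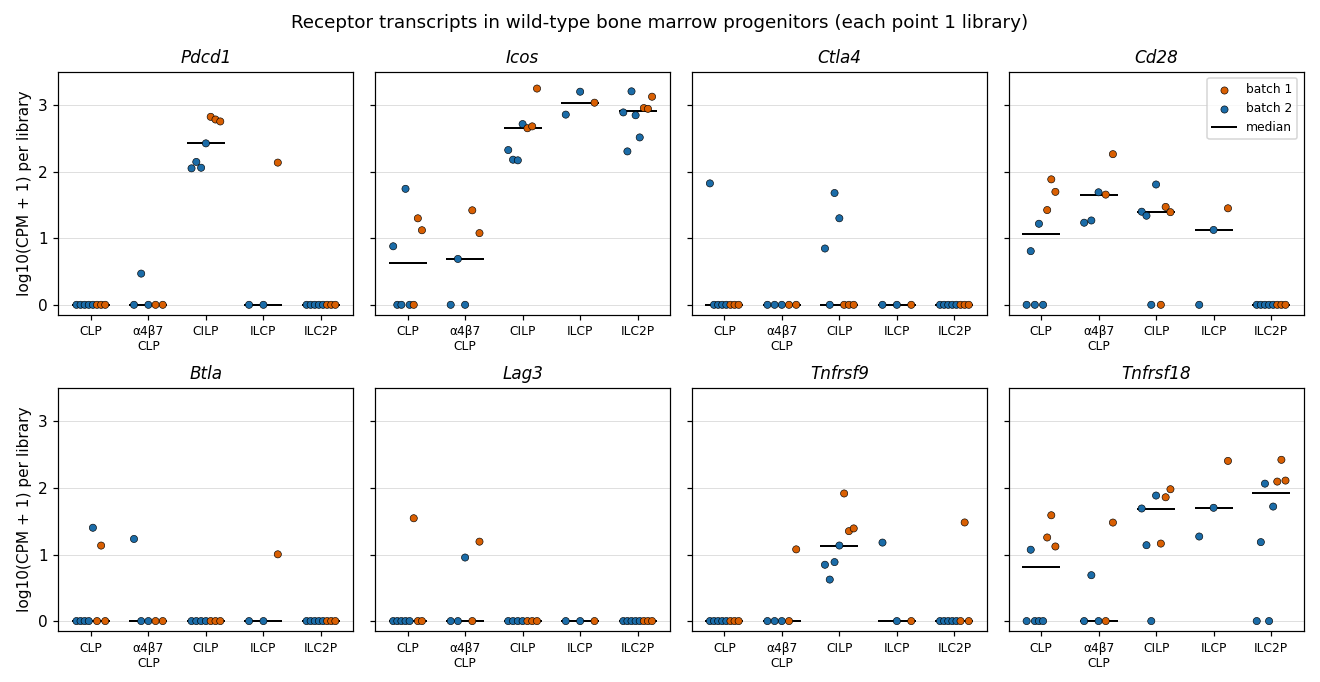
Level of each receptor transcript, as log10(CPM + 1), in the 31 wild-type libraries by population. Points are libraries coloured by batch and black bars are group medians, and the 7 CILP libraries of Pdcd1 lie between 111 and 666 CPM while all 8 CLP and all 8 ILC2P libraries are at 0.

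Icos encodes the inducible costimulator. Its level was 147 CPM in the lowest, 449 CPM in the median and 1774 CPM in the highest of 7 CILP libraries, against 0, 3.29 and 54.3 CPM at the same points of 8 CLP libraries. Every CILP library lay above every CLP library. The share of all genes without overlap is not given for any comparison, so how common such separation is among all genes is not known. The log2 fold change was 5.13 ± 0.80 (SE; edgeR adjusted p = 6.23e-06), and 2 of the 6 tested receptors were called in this comparison, Icos and Pdcd1, both higher, where 4.31% of all genes were called. An unadjusted p under 0.05 in edgeR was found for 5 of the 6, with Btla lower, and for 1848 of 10972 genes. The α4β7 CLP libraries held 0, 0, 3.89, 10.9 and 25.3 CPM of Icos, within the range of CLP. Set against these, Icos in CILP was higher by 5.71 ± 0.98 on the log2 scale (edgeR adjusted p = 9.59e-05), again with no overlap, and Icos and Pdcd1 were the 2 receptors called where 2.35% of all genes were.

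Icos was also high in the later populations. The 3 ILCP libraries held 719, 1088 and 1591 CPM, all above every CLP library, and the log2 fold change against CLP was 6.71 ± 0.89 (edgeR adjusted p = 1.28e-07). ILC2P held 201 CPM in the lowest, 828 CPM in the median and 1611 CPM in the highest of 8 libraries, also above every CLP library, with a log2 fold change of 5.76 ± 0.80 against CLP (edgeR adjusted p = 2.15e-07). Icos was the 1 receptor called in ILC2P against CLP, where 11.5% of all genes were called. Mean levels were 11.5 ± 18.7 CPM in CLP, 8.03 ± 10.6 CPM in α4β7 CLP, 533 ± 570.2 CPM in CILP, 1133 ± 437 CPM in ILCP and 842 ± 469 CPM in ILC2P (SD), so ILCP ranked first and ILC2P and CILP next. These 3 populations overlapped and no pair of them passed the test, with log2 differences (± SE) of -0.95 ± 0.80 for ILC2P against ILCP, 0.63 ± 0.64 for ILC2P against CILP and 1.58 ± 0.81 for ILCP against CILP. CLP and α4β7 CLP overlapped as well. The 4 calls for Icos in CILP, ILCP and ILC2P against the CLP groups held in 10 of 10 other settings each and in every fit that left out 1 library.

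Pdcd1 encodes PD-1. CILP held 111 CPM in the lowest, 266 CPM in the median and 666 CPM in the highest of 7 libraries, against 0 CPM in 8 of 8 CLP libraries, whose 1193976 summed counts allow up to 2.51 CPM. The mean of the CILP libraries was 141-fold above this floor of 3 counts over the pooled CLP group. The pooled CILP level was below that mean (224 CPM against 353 CPM), so 141-fold is no strict lower bound. The fitted log2 value was 8.44 ± 1.29 (SE; edgeR adjusted p = 2.04e-06). The 3 CILP libraries of batch 1 (568, 607 and 666 CPM) all stood above the 4 of batch 2 (111, 114, 139 and 266 CPM). CLP was at 0 in both batches, and the difference was called within each. A single α4β7 CLP library of 5 held Pdcd1, with 1 count (1.94 CPM), and CILP against α4β7 CLP was called (log2 7.39 ± 1.45, edgeR adjusted p = 0.000599). In batch 2 alone that call was lost (edgeR adjusted p = 0.209). Mean levels over the populations were 0 CPM in CLP, 0.389 ± 0.870 CPM in α4β7 CLP, 353 ± 251 CPM in CILP, 45.3 ± 78.5 CPM in ILCP and 0 CPM in ILC2P (SD).

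Downstream of CILP, Pdcd1 was sparse. The ILCP libraries held 0, 0 and 136 CPM, the last from 15 counts (95% exact interval 76.1 to 224 CPM), so a single library of batch 1 carried the signal. ILCP against CLP was called (log2 5.005 ± 1.404, edgeR adjusted p = 0.0302), as 1 of 2 receptors beside Icos where 2.61% of all genes were called, but without that library the log2 value was 0.41 with an adjusted p of 1. The call was also lost without CLP replicate 6, 7 or 8 (adjusted p of 0.0576, 0.0619 and 0.0550) and with DESeq2 and limma-voom. The highest ILCP library lay within the CILP range and the other 2 below it. Erythroid markers summed to 5089 CPM in one of the 2 ILCP libraries without Pdcd1 and to 0 in the other 2, against 0 to 404 CPM in CLP and 0 to 388 CPM in CILP. Hba-a1, a globin, was called higher in ILCP against CLP (edgeR adjusted p = 0.00123) and against CILP (0.00492), Eomes of the natural killer list was called against CLP (197 ± 318 CPM in ILCP and 0 CPM in CLP, edgeR adjusted p = 0.000353), and the part of such cells in the receptor levels was not tested. ILC2P held 0 CPM in 8 of 8 libraries, whose 458090 summed counts allow up to 6.55 CPM. Such floors cover counting error only: the technical repeats of CILP replicate 1 held 31 Pdcd1 counts of 169683 (183 CPM), 0 of 85470 and 6 of 77362 (77.6 CPM), so 0 also occurred at a depth above that of every ILC2P library. The mean of the 7 CILP libraries was 53.9-fold above the ILC2P floor, again no strict bound, with the pooled CILP level at 224 CPM. The fitted log2 value of ILC2P against CILP was -8.66 ± 1.49 (edgeR adjusted p = 3.58e-05), and the groups did not overlap. In batch 2 alone the adjusted p was 0.0514. The median over all genes was also -0.55 on the log2 scale in this comparison, and -0.23 with DESeq2's size factors, under which Pdcd1 was still lower (log2 -8.80). ILCP against CILP was not called for any receptor (0 of 6, 1 of them at an unadjusted p under 0.05, 0 by DESeq2 and 1, Pdcd1, by limma-voom, where edgeR called 0.374% of all genes).

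**Figure D2:**
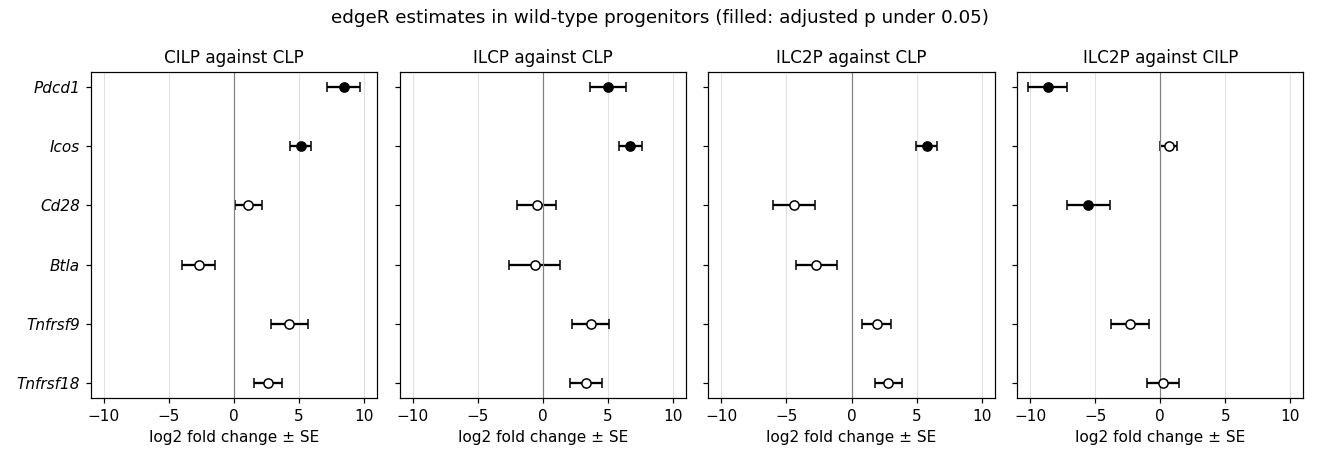
Fitted log2 fold change ± SE of the 6 tested receptors in wild-type comparisons, with filled points at an adjusted p under 0.05. Pdcd1 is the only gene whose CILP against CLP and ILC2P against CILP points are both filled, on opposite sides of 0, no point is drawn where both groups were at 0, and a point of a gene without counts in one group depends on the prior count of the fit.

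Cd28, the primary costimulatory receptor of T cells, was spread thinly over the early populations. CLP held 0 CPM in the lowest, 10.46 CPM in the median and 75.7 CPM in the highest of 8 libraries. α4β7 CLP held 16.1, 17.5, 44.3, 48.0 and 182 CPM, CILP held 0, 23.7 and 63.2 CPM at the lowest, median and highest library, and ILCP held 0, 12.3 and 27.2 CPM. These 4 populations overlapped, and no tested pair of them passed for Cd28, while ILCP against α4β7 CLP was not tested. ILC2P held 0 CPM in 8 of 8 libraries, and its mean was at least 3.498-fold lower than in CILP (fitted log2 -5.55 ± 1.64, edgeR adjusted p = 0.0302). Cd28 and Pdcd1 were the 2 receptors called in ILC2P against CILP, both lower, where 5.32% of all genes were called. The Cd28 call was lost in 6 of 8 other settings and in 4 of 15 fits that left out 1 library, with an adjusted p of 0.0636 without CILP replicate 4 and of 0.0546, 0.0524 and 0.0548 without ILC2P replicate 6, 7 or 8, and the groups overlap at 0. Against CLP, the same absence from ILC2P gave a log2 value of -4.45 ± 1.62 and missed the threshold (edgeR adjusted p = 0.0558). Mean levels were 21.4 ± 27.7 CPM in CLP, 61.7 ± 69.1 CPM in α4β7 CLP, 22.9 ± 21.3 CPM in CILP and 13.2 ± 13.6 CPM in ILCP (SD), so α4β7 CLP ranked first.

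Batch moved with Cd28 as well. In CLP the 3 libraries of batch 1 held 25.5, 48.8 and 75.7 CPM, and the 5 of batch 2 held 0 to 15.5 CPM. The 1 high α4β7 CLP library, at 182 CPM, was also of batch 1. Within batch 1 the α4β7 CLP mean was 113 ± 97.7 CPM, against 50.02 ± 25.1 CPM in CLP, and within batch 2 it was 27.2 ± 18.0 CPM, against 4.18 ± 6.75 CPM in CLP (SD). The pooled difference of 1.83 ± 1.11 on the log2 scale did not pass the test (edgeR adjusted p = 0.764). No receptor was called in α4β7 CLP against CLP by edgeR, DESeq2 or limma-voom, and none had an unadjusted p under 0.05 in edgeR, which called 0.0456% of all genes.

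Tnfrsf9 and Tnfrsf18, a pair of TNF receptor family members that bind 4-1BB ligand and GITR ligand, had low counts. Tnfrsf9 was counted in 7 of 7 CILP libraries, at 3.20 CPM in the lowest, 12.6 CPM in the median and 81.6 CPM in the highest, against 0 CPM in 8 of 8 CLP libraries. The CILP libraries lay above all CLP libraries but held only 1 to 6 counts each. Their mean was 8.83-fold above the CLP floor, which is no strict bound, as the pooled CILP level was 11.2 CPM against a mean of 22.2 CPM. The difference missed the threshold (log2 4.27 ± 1.40, edgeR adjusted p = 0.0616), while limma-voom called it. Tnfrsf9 passed the filter through CILP, so neither result is independent support. Elsewhere in wild type Tnfrsf9 was counted once per population, in 1 α4β7 CLP library (10.9 CPM), 1 ILCP library (14.1 CPM) and 1 ILC2P library (29.3 CPM).

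Tnfrsf18 was widespread, with overlap between all populations. ILC2P held 0 CPM in the lowest, 83.3 CPM in the median and 264 CPM in the highest of 8 libraries, against 0, 5.40 and 37.9 CPM in CLP. The log2 fold change of 2.83 ± 1.06 missed the threshold (edgeR adjusted p = 0.0635), while DESeq2 and limma-voom called it. ILCP held 17.6, 49.3 and 254 CPM. CILP held 0, 48.1 and 94.6 CPM at the lowest, median and highest library, and α4β7 CLP held 0, 0, 0, 3.89 and 29.2 CPM. Mean levels were 9.74 ± 13.3 CPM in CLP, 6.62 ± 12.7 CPM in α4β7 CLP, 45.2 ± 36.9 CPM in CILP, 107 ± 128 CPM in ILCP and 87.0 ± 90.0 CPM in ILC2P (SD), so ILCP ranked first. No neighbours in the ranking passed the test in edgeR. CILP against CLP, which are neighbours, gave a log2 value of 2.63 ± 1.05 (edgeR unadjusted p = 0.0141, adjusted p = 0.144). limma-voom also called Tnfrsf18 higher in ILCP against CLP, which edgeR did not (adjusted p = 0.134). In ILC2P against ILCP no receptor was called (0 of 6 by edgeR, DESeq2 and limma-voom, 2 at an unadjusted p under 0.05 in edgeR, Pdcd1 and Cd28), where edgeR called 0.483% of all genes.

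The 3 remaining inhibitory receptors stayed near the floor of detection. Ctla4 was counted in 1 of 8 CLP libraries (65.8 CPM) and in 3 of 7 CILP libraries (6.01, 19.0 and 46.8 CPM), all of batch 2, and in no α4β7 CLP, ILCP or ILC2P library. Btla, which binds the herpesvirus entry mediator HVEM, was counted in 2 CLP libraries (12.6 and 24.2 CPM), 1 α4β7 CLP library (16.1 CPM) and 1 ILCP library (9.06 CPM). Lag3 was counted in 1 CLP library (34.0 CPM) and 2 α4β7 CLP libraries (8.01 and 14.6 CPM). Neither Btla nor Lag3 had a count in the 7 CILP libraries, whose 1520537 summed counts allow up to 1.97 CPM, nor in the 8 ILC2P libraries. At this depth, absence from ILC2P is bounded only at 6.55 CPM, so lower levels were not detectable there.

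**Figure D3:**
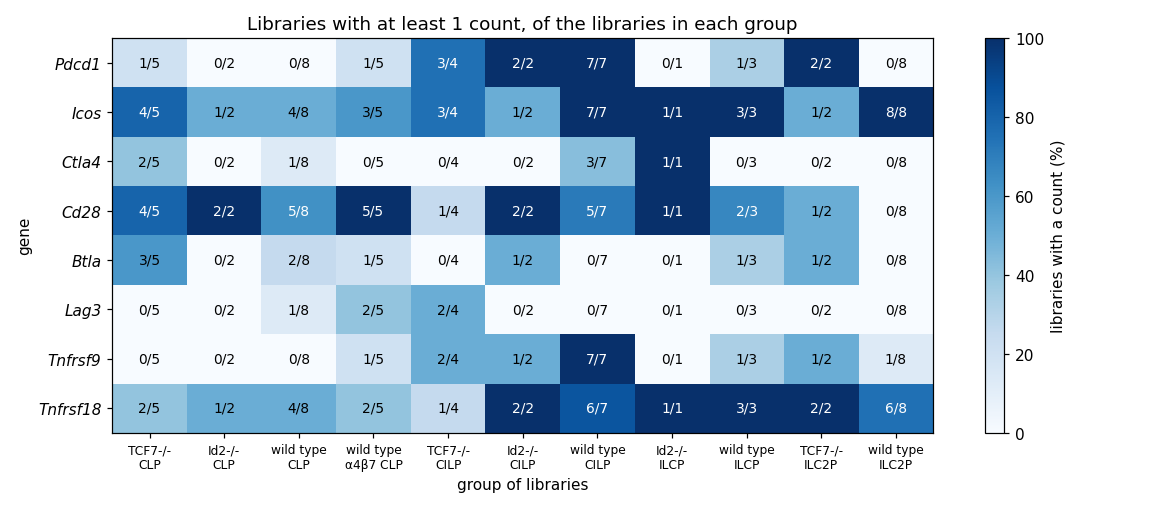
Number of libraries with at least 1 count of each receptor, of the libraries in each group, with the shade giving the percentage. Each population has its knockout columns left of wild type, and Pdcd1 is counted in 7 of 7 wild-type CILP libraries but in 0 of 8 wild-type ILC2P and 0 of 8 wild-type CLP libraries.

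Pdcd1 and Icos were counted together in 7 of 7 CILP libraries, and in the 8 ILC2P libraries Icos was counted without Pdcd1. Each library pools 100 cells, so counts in the same library need not come from the same cell, and fewer cells with a transcript cannot be told apart from less of it per cell. Across the 31 wild-type libraries, which share batches and differ in depth, the Pearson correlation of log2(CPM + 1) between Pdcd1 and Icos was 0.38. The genes most like Pdcd1 were Col9a3, a collagen chain (r = 0.97), Tmsb15a, a thymosin (r = 0.87), and Rora, a nuclear receptor that ILC2 need (r = 0.86). Col9a3 averaged 0 CPM in CLP, 1.17 CPM in α4β7 CLP, 64.3 CPM in CILP, 3.02 CPM in ILCP and 0 CPM in ILC2P. The genes most like Icos were the chemokine receptor Cxcr6 (r = 0.89), the transcription factor Bcl11b (r = 0.87) and Arg1, an arginase of ILC2 (r = 0.86). Correlations were lower for Tnfrsf18, with Cbx7 and Trib2 at 0.74 and Kif21b at 0.73, and for Cd28, with Ulk1 at 0.77, Sema4c at 0.74 and L3mbtl3 at 0.72.

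Transcripts listed as markers of other cells moved with some of these groups. The 8 mature T cell markers summed to 6.32 to 260.3 CPM in CILP, against 0 to 17.0 CPM in CLP, and among them Cd3d was higher in CILP (79.0 ± 97.4 CPM in CILP and 0 CPM in CLP, edgeR adjusted p = 0.00318). Cd3e, which encodes another chain of CD3, averaged 2.37 CPM in CILP and was counted in 2 of 7 libraries. In ILC2P, 6 of the 8 T cell markers including Cd3e and Cd3d were at 0. Natural killer cell markers summed to 68.0 to 286 CPM in CILP and to 0 to 12.6 CPM in CLP, where Eomes, Ncr1 and Gzma were called higher in CILP. Mast and basophil markers summed to 47.3 to 5114 CPM in CILP and to 0 in 8 of 8 CLP libraries, and Cpa3, a mast cell protease, was called higher in CILP (293.6 ± 202 CPM in CILP and 0 CPM in CLP, edgeR adjusted p = 2.93e-07). Cpa3 was also called higher in α4β7 CLP against CLP (142 ± 167 CPM, edgeR adjusted p = 0.000293), where Pdcd1 had only 1 count. In ILC2P, where Pdcd1 was at 0, Cpa3 was lower again (7.04 ± 15.5 CPM in ILC2P, edgeR adjusted p = 0.000413 against CILP). Whether these transcripts came from other cells or from the progenitors was not tested, nor was the part of other cells in the Pdcd1 and Icos levels.

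The lack of TCF-1 was set against wild type in 3 populations. Icos in TCF7-/- CILP held 0, 25.4, 81.0 and 125 CPM, against 147 CPM in the lowest, 449 CPM in the median and 1774 CPM in the highest of 7 wild-type CILP libraries. All 4 knockout libraries lay below all wild-type libraries, and this was so within each batch, with 81.0 and 125 CPM against 449 to 1774 CPM in batch 1 and 0 and 25.4 CPM against 147 to 518 CPM in batch 2. The share of all genes without overlap in this comparison is not given. The log2 difference of -3.24 ± 0.94 did not pass the test in edgeR over all genes (adjusted p = 0.108). It passed when no filter was applied, in batch 1 alone, and when only the compared groups were fitted, and in no fit that left out 1 library.

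Pdcd1 in TCF7-/- CILP held 0, 22.7, 99.4 and 376 CPM, overlapping wild-type CILP, with a log2 difference of -1.42 ± 1.10 (edgeR adjusted p = 0.675). Cd28 was counted once in these libraries (2.31 CPM in 1 of 4), against 5 of 7 in wild type (log2 -3.63 ± 1.65, edgeR adjusted p = 0.389). Tnfrsf18 was likewise counted in 1 of 4 knockout libraries, at 6.94 CPM, against 6 of 7 in wild type (log2 -3.03 ± 1.46, edgeR adjusted p = 0.424). Both genes were counted only in the deepest of the knockout libraries, at 432561 counts. The median depth was 56609 counts in the knockout group and 149467 in wild-type CILP, and the part of depth in these fractions was not tested. Lag3, by contrast with its 0 of 7 in wild-type CILP, had 8 and 3 counts (18.5 and 46.98 CPM) in 2 of the 4 knockout libraries. No receptor was called in TCF7-/- CILP by edgeR, DESeq2 or limma-voom, with 3 at an unadjusted p under 0.05 in edgeR, where 0.501% of all genes were called. Markers of other cells moved with this group. B cell markers summed to 298 to 2903 CPM in TCF7-/- CILP, against 0 to 428 CPM in wild-type CILP, with Ebf1 called (edgeR adjusted p = 0.0317). Erythroid markers summed to 46.98 to 4060 CPM, against 0 to 388 CPM in wild type, with Hba-a1 called (edgeR adjusted p = 0.0314). Mast and basophil markers summed to 223 to 2118 CPM, against 47.3 to 5114 CPM in wild type, with Gata2 called (edgeR adjusted p = 0.0321), and myeloid markers to 0 to 9163 CPM, against 0 to 1524 CPM in wild type, with no gene called. The CILP and ILC precursor markers summed to 771 to 6405 CPM, against 3272 to 7382 CPM in wild type. The part of these cells in the receptor levels was not tested.

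TCF7-/- CLP did not separate from wild-type CLP for any receptor. Icos held 0, 7.11, 13.8, 46.0 and 47.7 CPM in TCF7-/- CLP, and Cd28 held 0, 13.8, 14.8, 35.5 and 174 CPM, both overlapping wild-type CLP. Btla was counted in 3 of 5 knockout and 2 of 8 wild-type libraries, and Ctla4 in 2 of 5 knockout and 1 of 8 wild-type libraries. edgeR called 0% of all genes here, with 713 genes at an unadjusted p under 0.05 and 1 gene called by DESeq2 and 9 by limma-voom, and of the 6 receptors none was called by any of these tools or had an unadjusted p under 0.05.

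Pdcd1 was also higher in CILP than in CLP within TCF7-/- mice. TCF7-/- CILP held 0, 22.7, 99.4 and 376 CPM, against 0 in 4 and 9.85 CPM in 1 of 5 TCF7-/- CLP libraries, and the log2 fold change was 5.65 ± 1.43 (edgeR adjusted p = 0.0340). Pdcd1 was the 1 receptor called, where 0.529% of all genes were, and the call was lost in 6 of 9 fits that left out 1 library, those without TCF7-/- CLP replicate 1, 2, 3 or 4 or TCF7-/- CILP replicate 2 or 3, where the adjusted p was 0.0785 to 0.150. The groups overlap at 0. Icos did not pass the test over the same step (log2 1.07 ± 0.97, edgeR adjusted p = 0.729). The difference between genotypes in the step itself was -4.07 ± 1.27 on the log2 scale for Icos (edgeR adjusted p = 0.247) and -2.79 ± 1.57 for Pdcd1 (edgeR adjusted p = 0.631). No receptor was called in that test by edgeR, DESeq2 or limma-voom, 2 had an unadjusted p under 0.05 in edgeR (Icos and Cd28), and 0.0456% of all genes were called, so a different step was not shown for any of them.

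**Figure D4:**
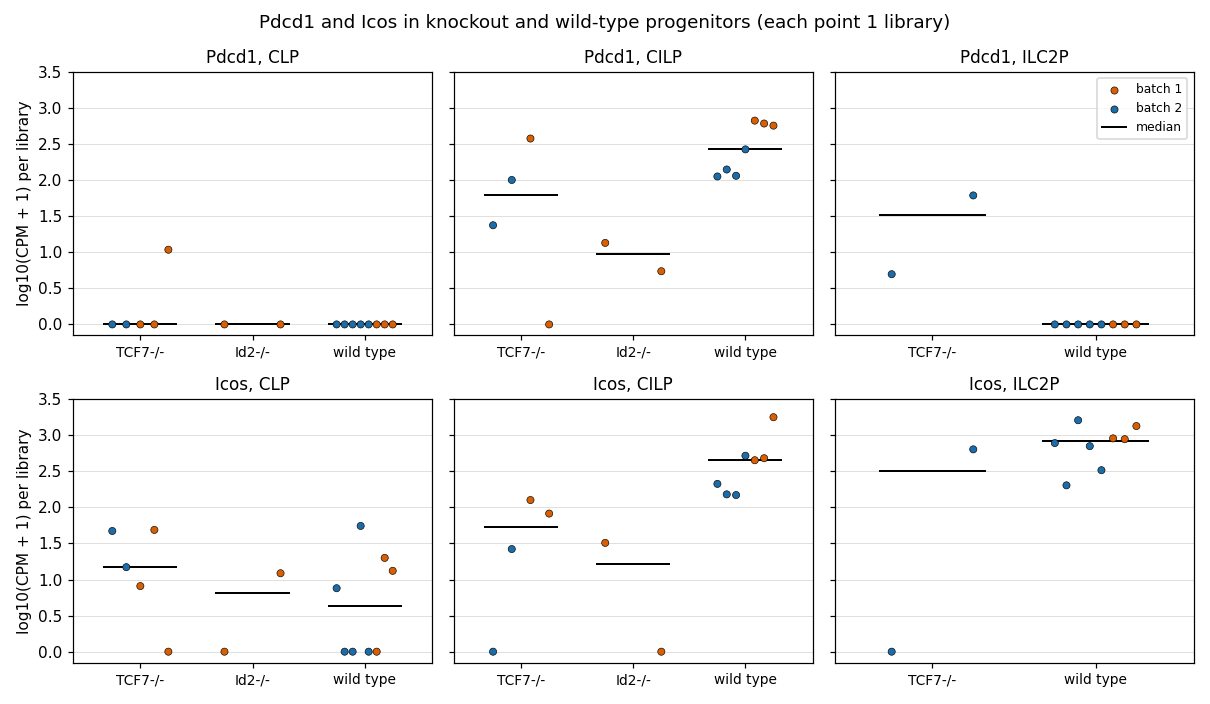
Level of Pdcd1 and Icos, as log10(CPM + 1), in knockout and wild-type libraries of CLP, CILP and ILC2P. Points are libraries coloured by batch and black bars are group medians, and the 4 TCF7-/- and 2 Id2-/- CILP libraries of Icos (0 to 125 CPM) lie below the 7 wild-type libraries (147 CPM and above).

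TCF7-/- ILC2P rests on 2 libraries that differed from each other. Pdcd1 was counted in both, at 3.97 CPM (1 count) and 60.3 CPM (15 counts), against 0 CPM in 8 of 8 wild-type ILC2P libraries. Its mean was at least 4.91-fold higher (fitted log2 6.55 ± 1.76, edgeR adjusted p = 0.0206), but without the second library the adjusted p was 0.536. The knockout libraries were deeper, at 248697 and 252100 counts against 19322 to 80873 in wild type, whose pooled floor of 6.55 CPM lies above the first of the values. Icos was 0 CPM in the first and 635 CPM in the second library, against 201 to 1611 CPM in wild type, and was not called (log2 -0.49 ± 1.03, edgeR adjusted p = 0.942). Without the second library, with the first assumed to vary like the other groups, Icos was called lower (edgeR adjusted p = 0.0394). Cd28 (51.6 CPM, 13 counts) and Btla (87.3 CPM, 22 counts) were counted in the first library alone, against 0 CPM in 8 of 8 wild-type libraries for each. The scaling factor of that library was 0.495, and on TMM-scaled totals the group means were 52.6 CPM for Cd28 and 88.98 CPM for Btla, against 25.8 and 43.6 CPM on plain totals. Cd28 was called (at least 3.94-fold higher, fitted log2 6.94 ± 1.87, edgeR adjusted p = 0.0209) and Btla was not (at least 6.66-fold higher, edgeR adjusted p = 0.0733). Btla passed the filter through the first library, so its test here is not independent of that library.

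In TCF7-/- ILC2P 2 of the 6 receptors were called, Pdcd1 and Cd28, where 2.57% of all genes were. Neither was called by limma-voom or without a batch term. DESeq2 gave Pdcd1 an adjusted p of 0.211 and gave none for Cd28, and in batch 2 alone Pdcd1 had an edgeR adjusted p of 0.226 and Cd28 did not pass the filter. Without the first library the log2 value of Cd28 was 0.98 with an adjusted p of 1. That library held 176152 CPM of the 4 plasma cell markers, against 0 to 1534 CPM in wild-type ILC2P, and 71.4 CPM of Il1rl1, against 309 to 2455 CPM in wild type. The second held 655 CPM of T cell markers, against 0 to 76.5 CPM in wild-type ILC2P, with Cd4 and Cd3e called higher in the knockout group. The part of these cells in the receptor levels was not tested.

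In Id2-/- CILP the levels of both Icos and Pdcd1 lay below wild type. Icos held 0 and 31.2 CPM in Id2-/- CILP, against 147 to 1774 CPM in wild type and 449 to 1774 CPM in the 3 wild-type libraries of the same batch. The log2 difference was -5.32 ± 1.46 and did not pass the test in edgeR (adjusted p = 0.127), while DESeq2 (adjusted p = 0.0050) and limma-voom called it. Pdcd1 held 4.46 and 12.5 CPM, from 1 and 2 counts, against 111 to 666 CPM in wild type and 568 to 666 CPM in the same batch. Its log2 difference was -5.90 ± 1.96 (edgeR adjusted p = 0.303), called by limma-voom, in batch 1 alone and when only the compared groups were fitted. Neither gene overlapped wild type, but the groups held 2 and 7 libraries, and the share of all genes without overlap is not given. Of the 6 receptors 0 were called by edgeR, 3 had an unadjusted p under 0.05 (Icos, Pdcd1 and Btla), 1 was called by DESeq2 and 2 by limma-voom, where edgeR called 0.0911% of all genes. The CILP and ILC precursor markers summed to only 375 to 543 CPM in the Id2-/- libraries, against 3272 to 7382 CPM in wild-type CILP, with no overlap, while Il1rl1 was called higher (178.8 ± 38.4 CPM in Id2-/- and 0.903 ± 2.39 CPM in wild type, edgeR adjusted p = 0.000846). Mast and basophil markers summed to 3764 to 6725 CPM, against 47.3 to 5114 CPM in wild type, and erythroid markers to 1311 to 1753 CPM, against 0 to 388 CPM in wild type. The part of other cells in the lower receptor levels was not tested.

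The other Id2-/- groups gave little. In Id2-/- CLP, Cd28 held 14.8 and 86.0 CPM and Icos 0 and 11.2 CPM, overlapping wild-type CLP, and Pdcd1, Ctla4, Btla, Lag3 and Tnfrsf9 were at 0. No receptor was called against wild-type CLP by edgeR, DESeq2 or limma-voom or had an unadjusted p under 0.05 in edgeR, which called 0.0365% of all genes. Between Id2-/- CILP and Id2-/- CLP likewise no receptor was called by the 3 tools or had an unadjusted p under 0.05, with 0.0273% of all genes called. The step from CLP to CILP differed between Id2-/- and wild type for 0 of 6 receptors in edgeR and DESeq2. In limma-voom it differed for 1, Pdcd1. Icos (log2 -4.14 ± 1.94) and Btla had an unadjusted p under 0.05 in edgeR, which called 0.0365% of all genes.

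The lone Id2-/- library labelled ILCP held 53.9 CPM of Icos (95% exact interval 19.8 to 117 CPM), against 719 to 1591 CPM in 3 wild-type ILCP libraries. Cd28 stood at 153 CPM (88.9 to 244 CPM), against 0 to 27.2 CPM in wild-type ILCP. Its T cell markers summed to 1337 CPM, against 3.53 to 127 CPM in wild-type ILCP, with Cd3e at 503 CPM and Il1rl1 at 18.0 CPM. With 1 library no test was made.

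Genes around the receptors were counted over lists of the same pathways. Of the 12 other costimulatory receptors, 6 were tested in CILP against CLP, with a median log2 value of 2.81 against 0.06 over all genes. Of these, 3 were called, all higher, where 4.31% of all genes were called. They were Tnfrsf25, the death receptor 3 that binds TL1A (62.7 ± 58.1 CPM in CILP and 0 CPM in CLP, edgeR adjusted p = 0.000509), Cd226 (DNAM-1) and Tnfrsf1b (TNF receptor 2). Of 14 other inhibitory receptors, 10 were tested and 1 was called, Cd160, higher in CILP (65.5 ± 73.0 CPM in CILP and 1.52 ± 4.31 CPM in CLP, edgeR adjusted p = 0.00768). Among 6 tested ligands of the 10 listed, Lgals3 was higher and Cd86, a ligand of CD28 and CTLA-4, was lower. Cd86 read 0 CPM in CILP and 53.9 ± 134 CPM in CLP (edgeR adjusted p = 0.0156). The 10 ligands together summed to 0 to 383 CPM in CLP, with a median of 39.6 CPM, so Cd86 was uneven over the CLP libraries.

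Of 20 signalling molecules below the receptors, all tested, 4 were higher and 1 was lower in CILP against CLP, where 4.31% of all genes were called. Lcp2, the adaptor SLP-76, averaged 133 ± 120.4 CPM in CILP and 8.97 ± 11.98 CPM in CLP (edgeR adjusted p = 0.00435), and the adaptors Traf2 and Sh2d1a (SAP) also rose. Inpp5d, the phosphatase SHIP-1, fell to 103 ± 92.1 CPM in CILP, against 385 ± 177 CPM in CLP (edgeR adjusted p = 0.0113). Of 19 NFAT, AP-1 and NF-kB factors and regulators tested, Tox and Tox2 were called, both higher. Tox, an HMG-box factor of ILC and T cell development, averaged 585 ± 262 CPM in CILP and 26.0 ± 31.3 CPM in CLP (edgeR adjusted p = 7.43e-05).

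In ILC2P against CILP, where Pdcd1 and Cd28 fell, Tox fell to 37.3 ± 59.8 CPM in ILC2P, against 585 ± 262 CPM in CILP (edgeR adjusted p = 0.000381), Tox2 was at 0 CPM in ILC2P, and Rel fell too. Nfkbia and Junb rose in the same list, so 2 were higher and 3 lower of 19, where 5.32% of all genes were called. Of 10 other inhibitory receptors, Klrg1 rose (482 ± 741 CPM in ILC2P and 0.229 ± 0.605 CPM in CILP, edgeR adjusted p = 4.34e-06) and Cd160 fell. Of 20 signalling molecules 0 rose and 2 fell, Lck and Traf2, and of 6 other costimulatory receptors none was called. In ILCP against CILP, Klrg1, Junb and Nfkbia rose and no listed gene fell, where 0.374% of all genes were called.

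The knockout comparisons moved few listed genes. Cd27, a costimulatory TNF receptor, fell in TCF7-/- CILP to 3.92 ± 7.83 CPM, against 149 ± 140.3 CPM in wild-type CILP (edgeR adjusted p = 0.0492). Siglecg rose in TCF7-/- ILC2P, to 94.1 ± 43.3 CPM, against 0 CPM in wild type (edgeR adjusted p = 0.00463). The 2 knockout libraries held 248697 and 252100 counts, against 19322 to 80873 in wild type. Their B cell markers summed to 306 and 2543 CPM, against 0 to 1803 CPM in wild-type ILC2P. The part of other cells and of depth in the Siglecg level was not tested. In TCF7-/- CILP against TCF7-/- CLP, Tnfrsf25 and Cd160 rose, as they did in wild type. None of the 5 lists held a gene called by edgeR in the Id2-/- comparisons with wild type or in TCF7-/- CLP against wild type.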

How the data were processed

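Libraries were made by CEL-seq, per the labels' protocols, and the authors deposited whole-number counts per gene. The submitters' processing notes name CASAVA 1.8.2, featureCounts, limma and edgeR 3.8.2 and 3.22.0 and the build mm10 (aligner not given in the sources used here). Counts of technical repeats were added to their parent, and no column lacked a sample. Left out of the comparisons were 12 control wells, 6 libraries labelled as an unsuccessful Nfil knockout, and 1 library labelled an outlier. The other 47 libraries were fitted together in edgeR 4.0.16 (quasi-likelihood, robust, TMM) with a mean per group and a batch term, after filterByExpr (minimum count 10, minimum total 15) left 10972 genes and 35 residual degrees of freedom. p-values were adjusted over all genes tested by the Benjamini-Hochberg method, with calls at 0.05. The SE is the size of the log2 fold change over the square root of F. Levels are CPM on the plain library total. Intervals are exact (Clopper-Pearson, 95%) and, like the floors of 3 counts, cover counting error only. Folds against a floor divide the mean CPM over libraries by 3 counts over the pooled total of the group at 0. Alternatives used DESeq2 1.42.0 and limma-voom 3.58.1, with each replicate also left out in turn. The fit was tested on simulated data for CILP against CLP, with 50 genes changed at each size. It called 46 genes raised 64-fold and 36 lowered 64-fold, but only 27 raised 8-fold and 16 lowered 8-fold. Of 134 calls 9 were false. Many changes of that size were therefore missed, and groups of fewer libraries were not simulated.

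The members and lists were chosen with earlier results of these data known. Named were the 8 members, called genes of the lists (at most 4 a list and comparison), neighbouring genes, and the 3 genes most like each member with at least 100 wild-type counts. Gene identifiers matched RefSeq for 25275 of 27179 genes. Replicate numbers were given in accession order and only name libraries. A called gene of the signalling list is not reported here.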

Additional observations from a re-analysis of the deposited data

Results flagged for a closer look

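Single libraries stood apart within their group, by the gap to the nearest other library, in 17 of the 34 groups of 4 to 10 libraries examined. Chance flags about 1 in 20 such groups, but most of these groups held mainly zeros, where 1 library with a few counts stands apart by itself. For Icos the libraries were wild-type CILP replicate 7 (1774 CPM, 75 counts) and wild-type CLP replicate 4 (54.3 CPM). For Pdcd1 they were α4β7 CLP replicate 2 (1.94 CPM, 1 count) and TCF7-/- CLP replicate 5 (9.85 CPM, 2 counts). Cd28 stood apart in TCF7-/- CLP replicate 4 (174 CPM), TCF7-/- CILP replicate 2 (2.31 CPM, 1 count) and α4β7 CLP replicate 5 (182 CPM).

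The same α4β7 CLP replicate 5 stood apart for Tnfrsf9 (10.9 CPM) and Tnfrsf18 (29.2 CPM). Tnfrsf9 also stood apart in CILP replicate 5 (81.6 CPM) and ILC2P replicate 7 (29.3 CPM), and Tnfrsf18 in TCF7-/- CILP replicate 2 (6.94 CPM) and wild-type CLP replicate 7 (37.9 CPM). Among the inhibitory receptors, Ctla4 stood apart in CILP replicate 3 (46.8 CPM) and CLP replicate 1 (65.8 CPM), Btla in α4β7 CLP replicate 1 (16.1 CPM), and Lag3 in CLP replicate 6 (34.0 CPM).

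Libraries outside the comparisons held some receptor counts. The wild-type CILP library labelled an outlier held 8 Pdcd1 counts (169.9 CPM), within the range of the other CILP libraries. A control well, replicate 8, held 14 Icos counts among 6936 (2018 CPM), while the other 11 control wells held none. In the libraries of the unsuccessful Nfil knockout, ILC2P pooled to 655 CPM of Icos, and CLP pooled to 17.2 CPM of Ctla4, 41.3 CPM of Cd28, 13.8 CPM of Btla and 41.3 CPM of Tnfrsf18.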

How the results depend on the processing

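No call of a receptor reversed its direction under any alternative run, and the counts of called receptors moved as follows. In CILP against CLP 3 were called with limma-voom or no batch term, where edgeR called 2, and in CILP against α4β7 CLP 3 with limma-voom, the third being Tnfrsf9 each time, and 1 in batch 2 alone. In ILCP against CLP 1 was called with DESeq2, in batch 2 alone and when only the compared groups were fitted, and 1 to 2 when 1 library was left out. In ILCP against CILP limma-voom called 1. In ILC2P against CLP 2 were called with DESeq2, with its size factors in edgeR, with limma-voom and without a batch term, the second being Cd28 without a batch term and Tnfrsf18 otherwise. In ILC2P against CILP 1 was called with DESeq2, its size factors, limma-voom, no batch term, batch 1 alone or the shallow libraries left out, 0 in batch 2 alone or with only the compared groups, and 1 to 2 when 1 library was left out. In TCF7-/- CILP against wild type 1 was called with no filter, in batch 1 alone and with only the compared groups. In TCF7-/- ILC2P against wild type 0 were called with DESeq2, limma-voom, no batch term, batch 2 alone or only the compared groups, and 1 to 2 when 1 library was left out. In Id2-/- CILP against wild type 1 was called with DESeq2 or no filter, and 2 with limma-voom, batch 1 alone or only the compared groups. In TCF7-/- CILP against TCF7-/- CLP 0 were called with no batch term, batch 2 alone or only the compared groups, and 0 to 1 when 1 library was left out. The difference in the step for Id2-/- gave 1 with limma-voom. Fits of fewer groups or libraries test fewer genes, and otherwise the cause was not tested. Over all genes, limma-voom called 527 and DESeq2 44 in Id2-/- CILP against wild type, where edgeR called 10, and in TCF7-/- CILP against wild type DESeq2 called 93 and no batch term 19, where edgeR called 55. With TMM-scaled totals the receptor levels moved by -17.8% to 104%, 59 of them within 1 SD, and the highest shift was that of Cd28 and Btla in TCF7-/- ILC2P. No paired analysis was possible because the labels give the libraries no replicate numbers. The main limits are 19322 to 80873 counts in wild-type ILC2P, 1 or 2 libraries in some knockout groups, and no Id2-/- library in batch 2 or TCF7-/- ILC2P library in batch 1.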
